A study of Mus musculus with 6 samples.

Results

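Collagen genes were examined in mouse yolk sacs at embryonic day 9.5, in mutants of Tnrc6a, which encodes GW182, and in wild-type littermates, as the series' design text calls them. The members were all genes on the array whose single symbol was Col, a number, the letter a and a number, and each gene was read from its brightest probe set over the 6 arrays. This gave 44 genes, from 46 probe sets, of 19938 genes with a probe set of a single symbol: 11 fibrillar collagens, 6 basement membrane (type IV) collagens and 27 others. One group was 3 yolk sacs labelled Tnrc6a (GW182) mutant, in the design text GW182gt/gt, that is, homozygous for a gene-trap allele. The other was 3 yolk sacs labelled wild type. No label ties a yolk sac to a litter. Per the labels the yolk sacs were taken embryo by embryo, and the total RNA of each was read on 1 Affymetrix mouse gene array. The genotype labels also say mixed, a term left undefined there, and where the trap lies relative to the Tnrc6a probes is not given. All values below are log2 signals as deposited or differences between them, mutant minus wild type. Probe sets differ in how they bind, so levels were compared between genes only beside the ranges of the fibrillar genes.

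Collagens are secreted proteins of 3 chains wound into a triple helix. Fibrillar collagens form the tensile fibrils of connective tissue, type IV collagens form the sheet-like network of basement membranes, and the others decorate fibrils, form filaments or sit in membranes. In the yolk sac a mesodermal layer with vessels lies against visceral endoderm, with basement membranes between them. Beside the yolk sac, parietal endoderm deposits the thick Reichert membrane, which is rich in type IV collagen and laminin. GW182 links Argonaute and its microRNA to the decay of target mRNAs. The miR-29 family is known for targeting collagen mRNAs.

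The sequences behind these groups are given from RefSeq (GRCm38.p6). The first set is the miR-29 family, shown because its shared seed is the reported link between the microRNA pathway and collagens. Capitals mark the seed, bases 2 to 8 from the 5′ end, which is the same in all members.
mmu-miR-29a-3p: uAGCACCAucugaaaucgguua
mmu-miR-29b-3p: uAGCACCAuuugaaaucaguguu
mmu-miR-29c-3p: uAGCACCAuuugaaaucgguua
Mir29a lies on the minus strand of chromosome 6 at chr6:31062673-31062694 and Mir29c on the plus strand of chromosome 1 at chr1:195037600-195037621. The mature miR-29b-3p is encoded on both chromosomes, by Mir29b-1 and Mir29b-2.

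The second set is the start region of the type IV genes Col4a1 and Col4a2, shown because the pair read high in the same single yolk sac. Each window runs from 250 bases before the gene's start to 50 after it. The genes are head to head on chromosome 8: Col4a1 is on the minus strand (chr8:11312777-11313076) and Col4a2 on the plus strand (chr8:11312555-11312854). Their listed starts are 21 bases apart. Capitals mark the 78 bases that the windows share, read from opposite strands.
Col4a1: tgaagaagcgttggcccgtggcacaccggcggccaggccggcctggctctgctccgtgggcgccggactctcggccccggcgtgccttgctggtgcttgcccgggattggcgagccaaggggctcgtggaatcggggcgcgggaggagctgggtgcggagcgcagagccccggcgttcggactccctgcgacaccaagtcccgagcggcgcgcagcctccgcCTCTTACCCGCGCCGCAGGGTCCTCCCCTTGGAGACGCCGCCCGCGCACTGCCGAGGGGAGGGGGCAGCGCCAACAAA
Col4a2: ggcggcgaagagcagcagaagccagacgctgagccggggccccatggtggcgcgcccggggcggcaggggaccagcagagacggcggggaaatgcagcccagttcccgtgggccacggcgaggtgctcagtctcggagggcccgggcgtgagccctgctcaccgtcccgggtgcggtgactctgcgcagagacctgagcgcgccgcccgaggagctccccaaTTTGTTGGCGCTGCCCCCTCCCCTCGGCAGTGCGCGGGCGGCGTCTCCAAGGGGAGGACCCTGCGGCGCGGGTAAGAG
The third set is the start region of Col1a2 (chr6:4505368-4505667, plus strand) and Col3a1 (chr1:45311288-45311587, plus strand), fibrillar genes that followed the same pattern over the arrays. Capitals mark matches, on either strand, to the CCAAT box, to the TATA box as TATAAA, and to the GC box as GGGCGG.
Col1a2: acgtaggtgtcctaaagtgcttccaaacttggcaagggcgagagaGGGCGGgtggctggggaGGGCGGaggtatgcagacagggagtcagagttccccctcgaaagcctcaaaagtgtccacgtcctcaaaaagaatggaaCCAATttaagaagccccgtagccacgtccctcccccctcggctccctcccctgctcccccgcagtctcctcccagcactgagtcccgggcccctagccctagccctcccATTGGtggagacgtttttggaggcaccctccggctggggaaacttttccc
Col3a1: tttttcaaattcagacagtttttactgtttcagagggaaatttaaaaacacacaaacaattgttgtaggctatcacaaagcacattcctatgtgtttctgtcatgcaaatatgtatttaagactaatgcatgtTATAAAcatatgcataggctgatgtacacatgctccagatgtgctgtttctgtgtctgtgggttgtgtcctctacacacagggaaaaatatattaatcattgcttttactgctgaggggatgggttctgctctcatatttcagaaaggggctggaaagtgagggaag
Col1a2 held 2 CCAAT and 2 GGGCGG matches and no TATAAA, whereas Col3a1 held 1 TATAAA and neither of the others. Of 35 collagen genes with a window in the table, 12 held CCAAT (34.3%, against 37.4% of 32851 windows of all genes) and 5 held TATAAA (14.3%, against 13.6%). GGGCGG was found in 22 of the 35 (62.9%, against 35.7%). Collagens were counted by 1 window a gene, the first listed, and the background by every window, so the shares are of unlike units. GC content was not matched. These counts describe letters in a window and were not tested.

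The check of the labels and the whole array can be given briefly. Tnrc6a read 7.81, 5.33 and 5.20 in mutants 1 to 3 and 8.40, 7.62 and 8.29 in wild types 1 to 3. The library labelled mutant 1 therefore goes against its label, and every mutant value below includes it unless stated. Of 16387 probe sets tested with limma, 0 passed a Benjamini-Hochberg adjusted p of 0.05 and 579 (3.53%) had an unadjusted p under 0.05. The methods' t-test also gave 0 after adjustment. The array medians lay between 5.19 and 5.22, and precision is limited by having 3 arrays a genotype. Of 8 primitive erythroid markers all 8 had lower mutant means (median −0.28), most of all in mutant 2 (mean −0.69), and of 6 embryo body markers 5 had higher ones (median 0.082). Since these are whole yolk sacs, fewer cells of a type and less RNA per cell cannot be told apart.

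No collagen gene passed the test between mutant and wild-type yolk sacs. Of the 44 genes, 43 had a mean signal above the limit for dim probe sets (4.29). Only Col10a1, the collagen of hypertrophic cartilage, did not, at 3.91 to 4.11 in mutants and 3.94 to 4.06 in wild type. Of the 43 tested, 21 were higher and 22 lower in the mutants (52.4% and 47.6% of all probe sets), with a median difference of −0.0020 beside 0.0063 over all probe sets. By limma 0 passed the adjusted threshold (adjusted p = 0.999 for each) and 1 had an unadjusted p under 0.05, with a higher mutant mean (3.53% of all probe sets in either direction, 2.25% higher and 1.28% lower). The genotypes did not overlap for 2 genes, 1 in each direction (8.55% of all probe sets, 5.17% higher and 3.38% lower). The balance of signs depended on single libraries: 12 were higher and 31 lower without mutant 2, against 30 higher and 13 lower without mutant 3. The 95% interval of the difference lay within 0.5 on the log2 scale for 33 of the 43 genes and within 1 for 41. The exceptions at 1 were Col4a1 and Col4a2.

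**Figure D1:**
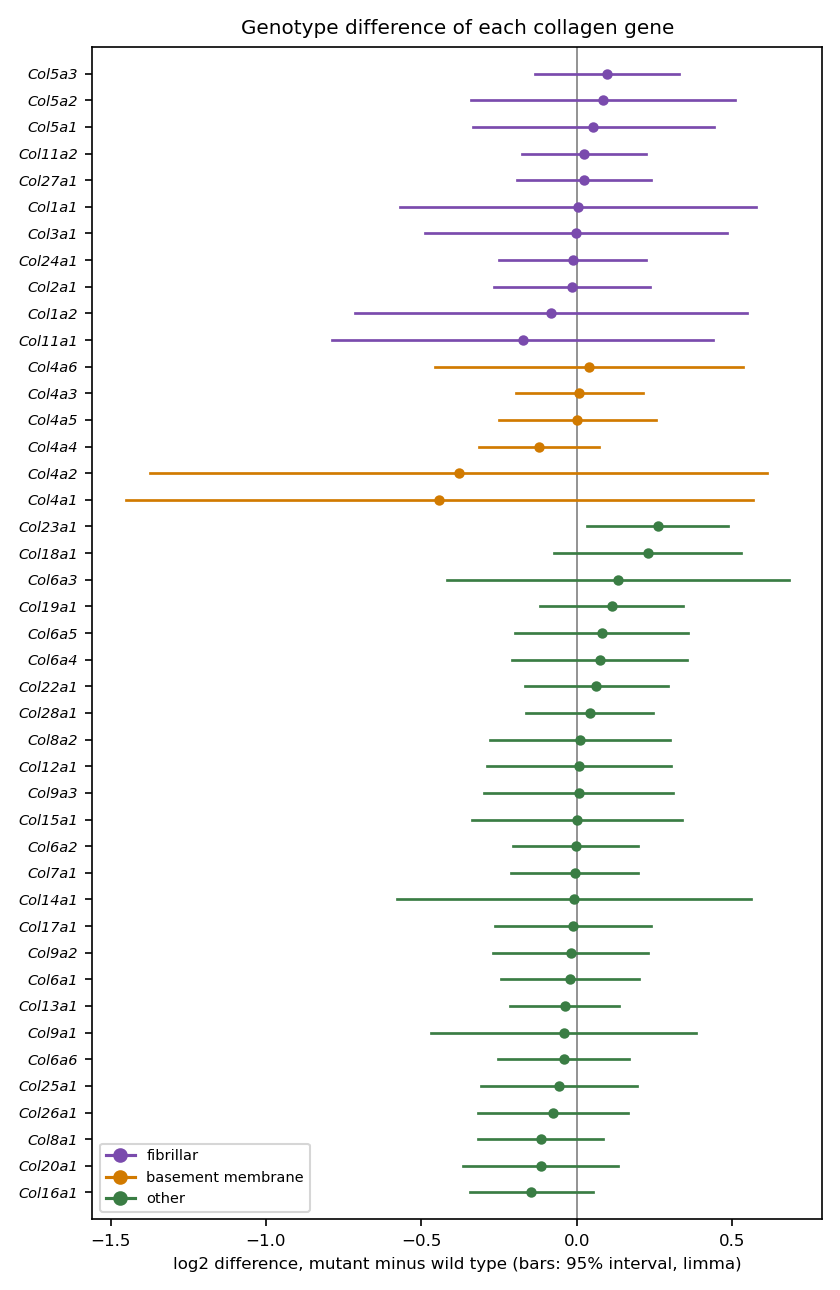
Log2 difference, mutant minus wild type (x axis), of the 43 collagen genes tested (y axis), with the 95% interval from limma as bars and colours for the 3 classes. The points lie around 0 from −0.44 (Col4a1) to 0.26 (Col23a1), and only the interval of Col23a1 excludes 0 before adjustment.

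The 3 classes differed in how far they ranged over the arrays. The range over the 6 arrays had a median of 0.61 for the fibrillar collagens and 0.51 for the type IV collagens, beside 0.36 for the other collagens and 0.35 over all probe sets tested. The median SD among the 3 mutants was 0.15 for fibrillar, 0.11 for type IV and 0.13 for other collagens, and among the 3 wild types 0.23, 0.21 and 0.10. The fibrillar genes were mixed. The mutant SD was the larger for Col11a1 (0.55 against 0.23), Col1a1 (0.47 against 0.30) and Col1a2 (0.51 against 0.35). It was the smaller for Col3a1 (0.31 against 0.34), Col5a1 (0.15 against 0.32) and Col5a2 (0.24 against 0.31). In the type IV class the wider wild-type spread came from Col4a1 and Col4a2, with SDs of 1.01 and 0.99 against 0.036 and 0.033 in mutants. For Col4a3, Col4a4 and Col4a5 the mutant SD was the larger. That of Col4a6 was 0.335 in both genotypes. Of the 43 genes, 14 were highest in mutant 2 and 11 in wild type 2, while 17 were lowest in mutant 3. Over all probe sets these shares were 17.1%, 12.3% and 17.5%. Mutant 2 and wild type 2 were the 2 highest arrays for 15 collagens (34.9%), against 6.01% of all probe sets, a measure chosen after the values were seen. Genes on 1 array share its RNA and are not independent, so these shares are a description.

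**Figure D2:**
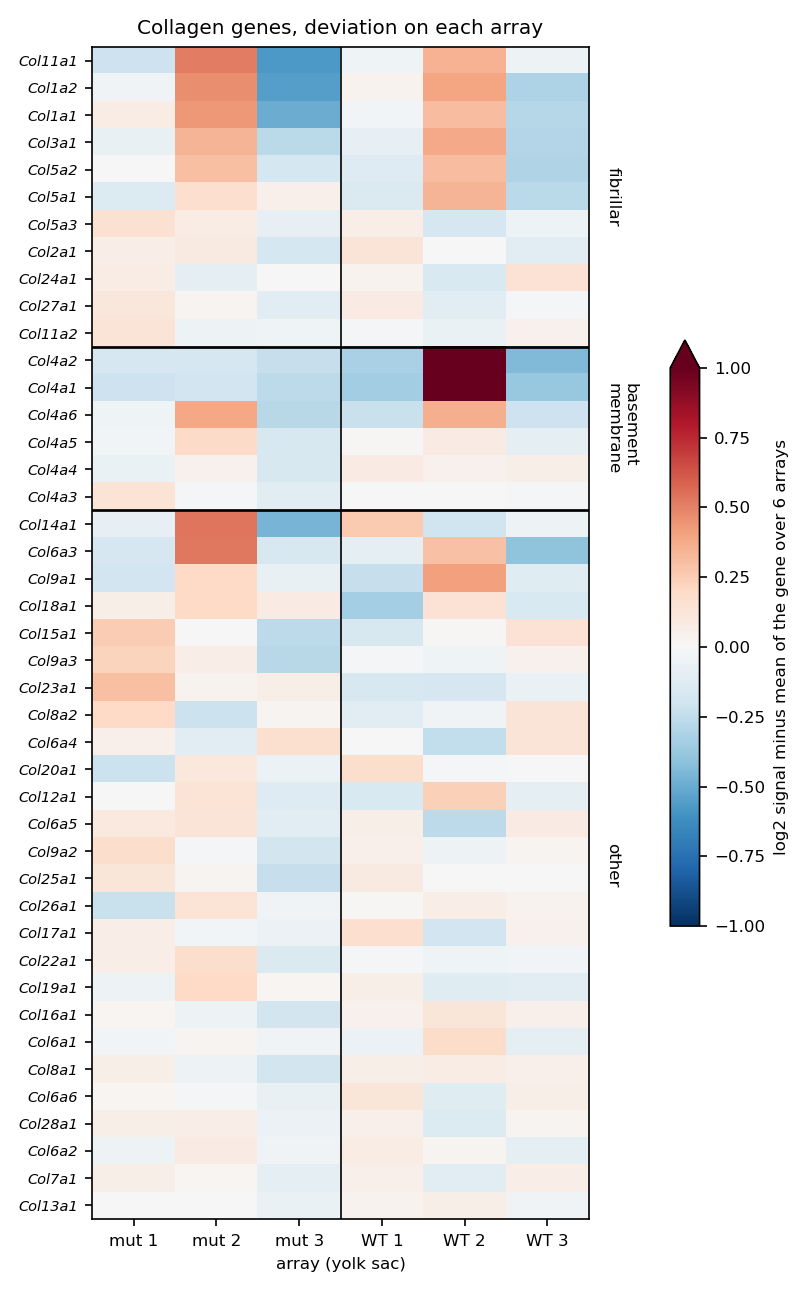
Deviation of each collagen gene from its mean over 6 arrays (colour, log2 signal), for the 3 mutant and 3 wild-type arrays (x axis) and 43 genes in 3 classes (y axis, largest range first). Most of the upper fibrillar genes are high in mutant 2 and wild type 2 and low in mutant 3 and wild type 3; Col4a1 and Col4a2 in wild type 2 lie beyond the end of the scale.

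Fibrillar collagens did not separate the genotypes, and their main genes varied together between yolk sacs. All 11 passed the filter, 6 were higher and 5 lower in the mutants, and the median difference was 0.0037. Their mean relative to the wild-type average was 0.013, 0.21 and −0.22 in mutants 1 to 3, and −0.0081, 0.14 and −0.14 in wild types 1 to 3. The mutants thus spanned a wider range than the wild types, on both sides of them.

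Col1a1 (probe set 10380419), which encodes the more abundant chain of type I collagen, read 11.15, 11.51 and 10.58 in mutants 1 to 3 and 11.05, 11.38 and 10.79 in wild types 1 to 3. Mutant 2 was the highest array and mutant 3 the lowest, so the groups overlapped throughout. The means were 11.08 ± 0.47 in mutants and 11.07 ± 0.30 in wild type (SD, n = 3 each), a difference of 0.0037 with a 95% interval of −0.57 to 0.58. Col1a2, its partner chain in type I collagen, read 10.23, 10.73 and 9.72 in mutants and 10.30, 10.67 and 9.96 in wild types. The order of the arrays was close to that of Col1a1, with mutant 2 and wild type 2 on top and mutant 3 lowest. The difference was −0.083 (SE 0.27).

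Col3a1, the collagen of elastic vessel and organ walls, read 10.12, 10.54 and 9.93 in mutants and 10.12, 10.57 and 9.90 in wild types. The genotypes ran side by side, with a difference of −0.0020 and a 95% interval of −0.49 to 0.48. Without wild type 2 the difference was 0.19, without mutant 3 it was 0.13 and without mutant 2 it was −0.17. Col11a1, a minor fibril chain known from cartilage, varied most in this class: 7.07, 7.79 and 6.70 in mutants and 7.23, 7.63 and 7.23 in wild types. Its difference of −0.17 (SE 0.26) was the lowest of the fibrillar genes. It had an unadjusted limma p under 0.05 only without mutant 2, where it was −0.48.

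Col5a1 and Col5a2, whose chains start the assembly of type I fibrils, were also highest in mutant 2 and wild type 2. Col5a1 read 7.37, 7.68 and 7.56 in mutants and 7.37, 7.85 and 7.24 in wild types, so that mutant 3 was not among its low arrays. Col5a2 read 7.90, 8.20 and 7.72 in mutants and 7.77, 8.20 and 7.59 in wild types. The differences were 0.053 (SE 0.17) and 0.084 (SE 0.18). The remaining fibrillar genes varied little. The third type V chain, Col5a3, differed by 0.098, Col11a2 by 0.023, Col27a1 by 0.023, Col24a1 by −0.014 and the cartilage collagen Col2a1 by −0.016. Their ranges over the 6 arrays were 0.19 to 0.31, against 0.61 to 1.09 for the 6 genes above. They also read lower, with mutant means of 5.06 to 6.51 against 7.19 to 11.08. Outside this class Col4a6 ranged over 0.66 at a mutant mean of 5.31. The part of signal level in these ranges was not tested.

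**Figure D3:**
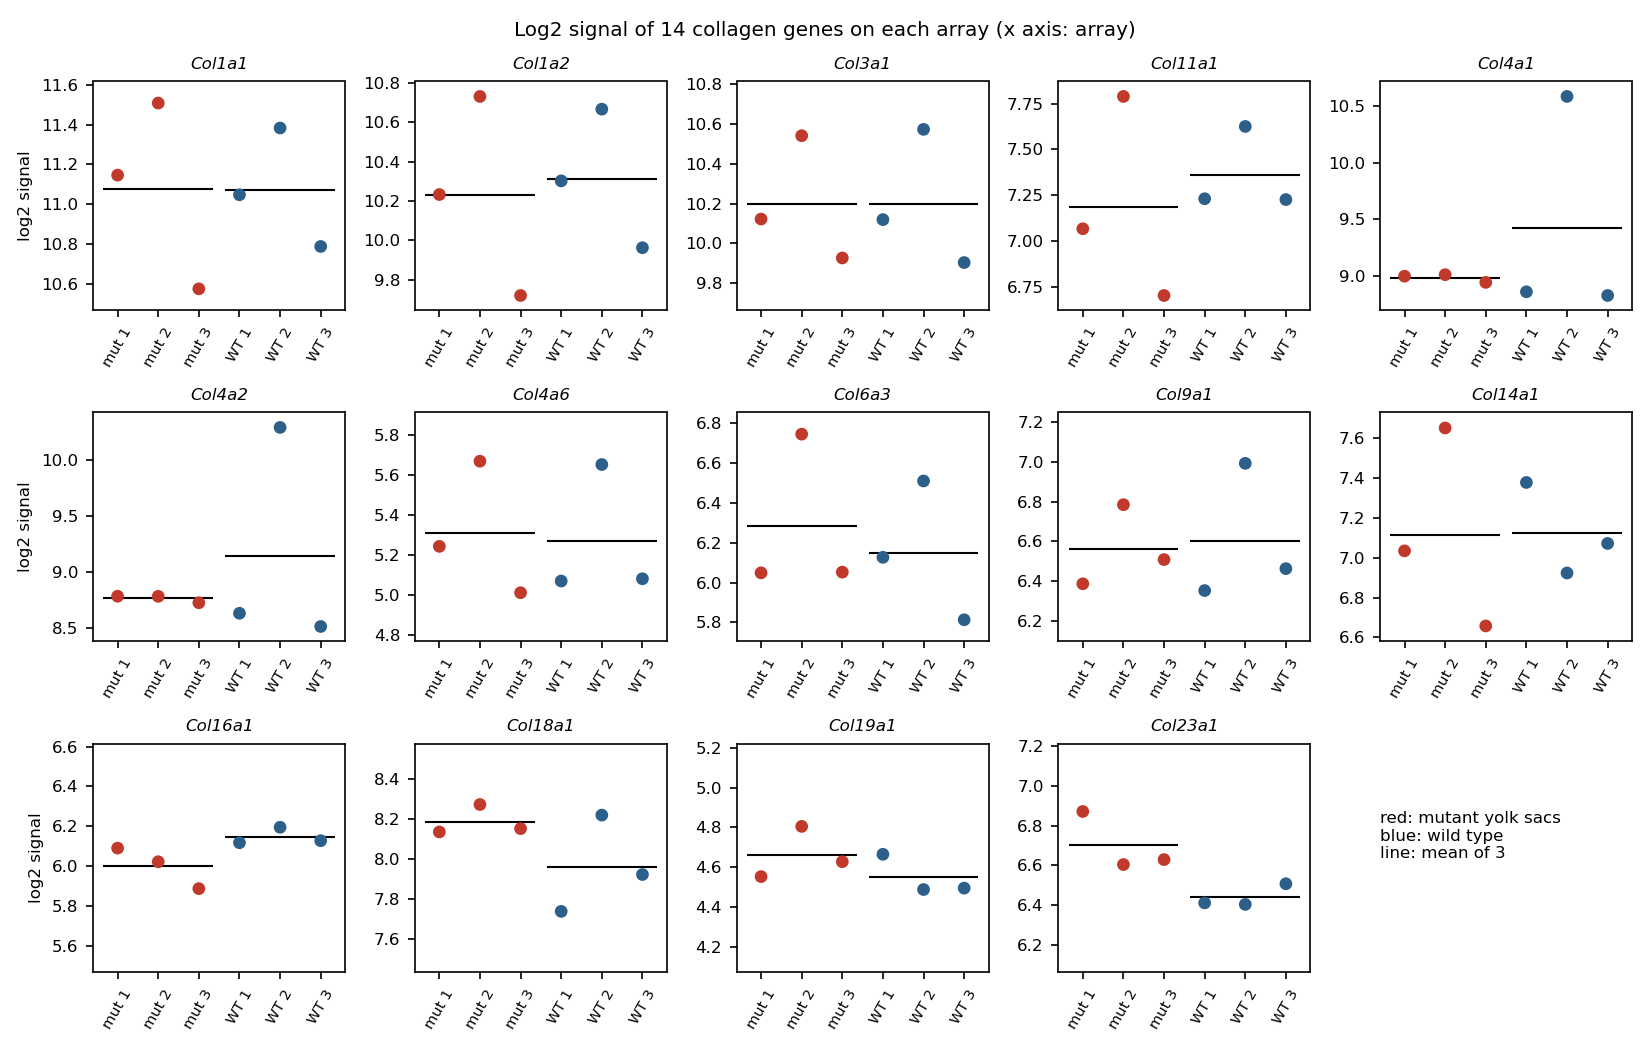
Log2 signal (y axis, own scale for each gene, at least 1 unit tall) on the 3 mutant (red) and 3 wild-type (blue) arrays (x axis) for 14 collagen genes, with the mean of each genotype as a line; mut 1 is the library labelled mutant 1. Col1a1, Col1a2, Col3a1 and Col11a1 are highest in mutant 2 and wild type 2, Col4a1 and Col4a2 are high only in wild type 2, and for Col23a1 every mutant lies above every wild type.

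Some markers of other tissues, and not every member of their lists, followed these arrays. Prl8a2, a prolactin-like hormone of the maternal decidua, read 3.51, 9.11 and 3.91 in mutants 1 to 3 and 4.09, 7.44 and 3.60 in wild types 1 to 3. It was thus high in the same 2 yolk sacs in which Col1a1, Col1a2 and Col3a1 were highest. In the decidua list 9 of 12 markers passed the filter. The mean of these 9, Prl8a2 among them, was −0.30, 0.39 and 0.099 in mutants and −0.32, 0.56 and −0.24 in wild types. Mutant 2 and wild type 2 were thus also highest in the list mean. The log2 of the summed signal of all 12 ran from 9.63 to 10.50 in mutants and 9.56 to 10.41 in wild types. The prolactin-family decidual genes Prl3c1 and Prl6a1 lay below the dim limit on every array, and the other tested members did not share the size of the Prl8a2 difference. Bmp2 read 5.42, 5.31 and 6.15 in mutants and 5.09, 6.43 and 5.39 in wild types, and Igfbp1 read 6.92, 6.75 and 7.78 in mutants and 7.04, 7.89 and 6.79 in wild types, so both were lowest in mutant 2 among the mutants. Mesenchyme and mesothelium markers gave a different order in their mean, though not in every member. All 16 passed, and their mean was −0.16, 0.15 and 0.32 in mutants and −0.30, 0.42 and −0.13 in wild types. Mutant 3 was thus high in this mean and low in fibrillar collagens. Tagln, a smooth muscle protein, read 8.59 in mutant 3, where Col1a1 was lowest, and 8.44 in wild type 2. Pdgfra read 7.51, 8.38 and 8.56 in mutants and 7.68, 9.13 and 7.76 in wild types. Postn, Hand1, Upk3b and Krt19, named after their values were seen, did have mutant 2 and wild type 2 as their 2 highest arrays. Upk3b was also lowest in mutant 3 (7.80), as Col1a1 was. The other members of the list did not have these 2 arrays on top. The part of these tissues in the collagen values was not tested. Without mutant 2 and wild type 2, an alternative chosen after seeing the data, the difference was −0.057 for Col1a1 and 0.013 for Col3a1.

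Type IV collagens divided into Col4a1 and Col4a2, which were high in 1 wild-type yolk sac, and 4 genes with small differences. All 6 passed the filter, 3 were higher and 3 lower in the mutants, and the median difference was −0.060. Col4a1 and Col4a2 encode the chains of the network found in nearly every basement membrane, from the shared start region printed above.

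Col4a1 (probe set 10576973) read 9.00, 9.01 and 8.94 in mutants 1 to 3 and 8.86, 10.59 and 8.82 in wild types 1 to 3. Wild type 2 stood 3.36-fold above the average of the other wild types, and the mutants lay between those and wild type 2. The means were 8.98 ± 0.036 in mutants and 9.42 ± 1.01 in wild type (SD, n = 3 each). The difference of −0.44 had an SE of 0.43 and an unadjusted limma p of 0.339 (adjusted p = 0.999). Col4a2 (probe set 10570068) read 8.78, 8.78 and 8.72 in mutants and 8.63, 10.29 and 8.51 in wild types, with wild type 2 at 3.28-fold above the other wild types. Its difference was −0.38 (SE 0.42). Both signs came from wild type 2: without it, every mutant lay above both wild types. The difference of the means was then 0.14 (95% interval −0.072 to 0.35) for Col4a1 and 0.19 (95% interval −0.031 to 0.41) for Col4a2. Neither passed then either (adjusted p = 0.982 and 0.975 by limma). The genotypes did not overlap for 9 of the 43 collagens without wild type 2, against 20.9% of all probe sets.

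Most markers of parietal endoderm and the Reichert membrane were high in the same yolk sac. Wild type 2 was the highest array for all of them but Lamb2 and Nid2. All 12 passed the filter, and the log2 of their summed signal was 12.25 to 12.35 in mutants and 12.11 to 13.52 in wild types. Lama1, a laminin chain, read 7.77, 8.02 and 8.42 in mutants and 7.74, 10.69 and 7.69 in wild types. Fst, which encodes follistatin, read 4.62 to 4.87 in mutants and 4.49, 8.68 and 4.63 in wild types, so that wild type 2 was 17.4-fold above the other wild types. Nid1, a link protein of basement membranes chosen after its values were seen, read 10.10 in wild type 2 and 7.74 to 8.52 on the other 5 arrays. Nid2, its relative, did not follow, at 9.17 to 9.46 in mutants and 9.29 to 9.31 in wild types. Lamb2, a laminin chain, read 7.58 in wild type 2, below mutants 1 and 2 (7.70 and 7.83), and Hspg2, perlecan, read 8.56 there against 8.28 to 8.42 in mutants. These were named after their values were seen. Prl4a1, a trophoblast hormone, was also highest in wild type 2, at 7.13, against 3.51 to 5.14 on the other arrays. Of 11 trophoblast markers on the array 3 passed the filter, and the other two did not follow. Syna was lowest in wild type 2 (4.35), and Peg10 read 11.62 to 11.82 in mutants and 11.50 in wild type 2. Of the dim ones, Tpbpa and Ctsq lay below the dim limit on every array. The visceral endoderm list did not move with wild type 2, where its mean was −0.0038. The part of these tissues in Col4a1 and Col4a2 was not tested. Both differences are given above with and without this library.

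**Figure D4:**
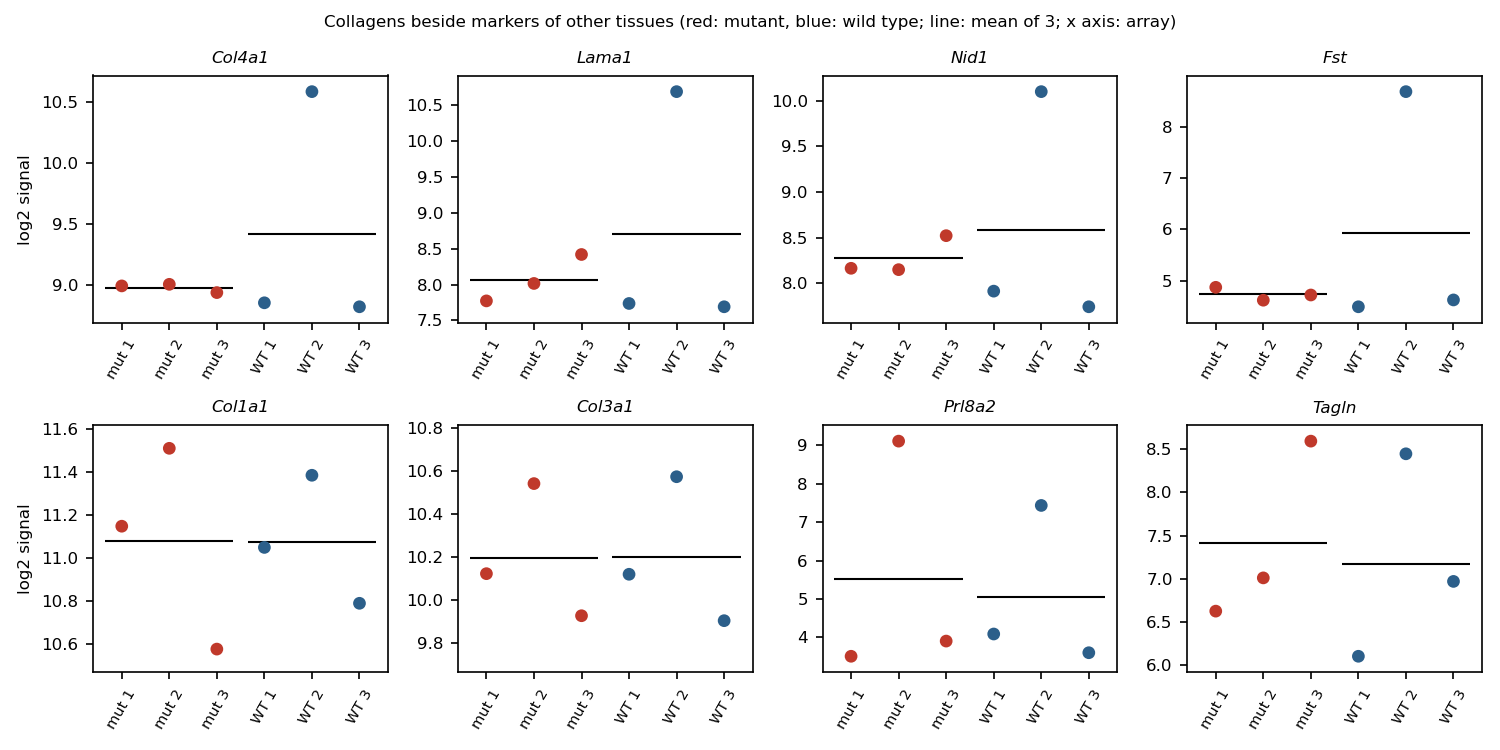
Log2 signal (y axis, own scale for each gene) on the 3 mutant (red) and 3 wild-type (blue) arrays (x axis), with the mean of each genotype as a line; mut 1 is the library labelled mutant 1. In the upper row Col4a1, Lama1, Nid1 and Fst are high only in wild type 2; in the lower row Col1a1, Col3a1 and Prl8a2 are highest in mutant 2 and wild type 2, while Tagln is highest in mutant 3.

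Col4a6, whose chain is confined to a few basement membranes such as those of smooth muscle, followed the fibrillar pattern instead. It read 5.24, 5.67 and 5.01 in mutants and 5.07, 5.65 and 5.08 in wild types, a difference of 0.040 (SE 0.21). Col4a5, its head-to-head neighbour on the X chromosome, with a listed start 1343 bases away, read 5.78 to 6.13 in mutants and 5.86 to 6.02 in wild types and differed by 0.0012. The libraries with a high Xist signal, the RNA of the inactive X chromosome, were mutant 3, wild type 1 and the library labelled mutant 1. Col4a3 and Col4a4, chains of the mature kidney filter, differed by 0.0085 (SE 0.087) and −0.12 (SE 0.083). Col4a4 read 4.90 to 5.10 in mutants and 5.10 to 5.14 in wild types, and the groups came apart without wild type 2.

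Among the 27 other collagens Col23a1 and Col18a1 had the largest differences, and neither passed. Of the 26 that were tested 12 were higher and 14 lower in the mutants, with a median difference of −0.0055. Col23a1 (probe set 10375838), a transmembrane collagen, read 6.87, 6.60 and 6.63 in mutants 1 to 3 and 6.41, 6.40 and 6.51 in wild types 1 to 3. Every mutant lay above every wild type. The means were 6.70 ± 0.15 in mutants and 6.44 ± 0.058 in wild type (SD, n = 3 each), a 1.20-fold higher level in mutants. This was the 1 collagen with an unadjusted limma p under 0.05 (0.0294, adjusted p = 0.999). The highest value was that of the library labelled mutant 1, whose Tnrc6a was near the wild-type level, and without it the unadjusted p was above 0.05. The same held without wild type 1, without wild type 2 (unadjusted limma p of 0.0777), with the Xist level as a covariate, and without wild type 2 together with either mutant 1 or mutant 2. With any single library omitted the Col23a1 difference lay between 0.18 and 0.31.

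Col18a1 (probe set 10370259), the basement membrane collagen whose cleaved end is endostatin, read 8.14, 8.27 and 8.15 in mutants and 7.74, 8.22 and 7.92 in wild types. The mutants were tight and wild type 2 lay among them, so the groups overlapped. The means were 8.19 ± 0.075 in mutants and 7.96 ± 0.24 in wild type (SD, n = 3 each), and the difference was 0.23 (SE 0.13), with an unadjusted limma p of 0.117 and an adjusted p of 0.999. Without wild type 2 the groups did not overlap, with a difference of 0.36, an unadjusted limma p of 0.0122 and an adjusted p of 0.975. In that fit 4.83% of all probe sets had an unadjusted p under 0.05. Wild type 2 was the highest of the wild types, so leaving it out had to widen the difference. With all arrays and the Xist level as a covariate, the Col18a1 difference was 0.31 (unadjusted limma p of 0.0343, adjusted p = 0.999). There 4.31% of all probe sets had an unadjusted p under 0.05. The unadjusted p of Col18a1 was also under 0.05 without wild type 2 together with either mutant 1 or mutant 2. Endothelium markers ran in the same direction: 12 of 12 had higher mutant means, 4 of them at an unadjusted p under 0.05 (52.4% and 2.25% of all probe sets with every library in the fit), with a median of 0.27 and a log2 summed signal of 11.42 to 11.81 in mutants and 11.24 to 11.47 in wild types. Their part in Col18a1 was not tested. Col15a1, the other collagen of this type, read 5.80, 5.55 and 5.28 in mutants and 5.39, 5.55 and 5.69 in wild types and differed by 0.00082.

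Type VI collagens form beaded filaments near cell surfaces. Col6a3 read 6.05, 6.75 and 6.05 in mutants and 6.13, 6.51 and 5.81 in wild types, which is the fibrillar pattern again, with a difference of 0.13 (SE 0.24). Its partner chains Col6a1 and Col6a2 varied less, with differences of −0.024 and −0.0037. Col6a4, Col6a5 and Col6a6 differed by 0.073, 0.080 and −0.043. The last pair had a second, dimmer probe set each, below the filter, at −0.055 for Col6a5 and −0.073 for Col6a6, so the probe sets of Col6a5 disagreed in sign.

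The fibril-associated collagens, which coat fibrils rather than form them, held the largest ranges of the remaining genes. Col14a1 read 7.03, 7.65 and 6.66 in mutants and 7.38, 6.92 and 7.07 in wild types. Mutant 2 was highest and mutant 3 lowest, as for Col1a1, but wild type 2 was the lowest wild type. Col9a1, a chain of type IX collagen of cartilage and eye, read 6.39, 6.78 and 6.51 in mutants and 6.35, 6.99 and 6.46 in wild types, with both of the usual arrays on top. Its difference was −0.043 (SE 0.18), and those of Col9a2 and Col9a3 were −0.020 and 0.0065.

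Col16a1 was the 1 collagen for which every mutant lay below every wild type, at 6.09, 6.02 and 5.89 in mutants and 6.12, 6.19 and 6.13 in wild types. The difference of −0.15 (SE 0.085) had an unadjusted limma p of 0.123 and an adjusted p of 0.999, and the nearest values of the groups were 6.09 and 6.12. Col19a1 read 4.55, 4.81 and 4.63 in mutants and 4.66, 4.49 and 4.49 in wild types, near the dim limit, with a difference of 0.11 (SE 0.099). Col12a1 differed by 0.0066, Col20a1 by −0.12 and Col22a1 by 0.063. The other transmembrane collagens, Col13a1, Col17a1 and Col25a1, differed by −0.040, −0.013 and −0.057. The short-chain collagens Col8a1 and Col8a2 differed by −0.12 and 0.010. Col7a1, the anchoring fibril of skin, differed by −0.0073, Col26a1 by −0.077 and Col28a1 by 0.041.

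The collagens reported as miR-29 targets (Col1a1, Col1a2, Col3a1, Col4a1, Col4a2, Col5a1, Col5a2, Col5a3 and Col15a1) lay on both sides of 0. Of 9, 5 were higher and 4 lower in the mutants, with a median of 0.00082. The miR-29 genes on the array lay far below the dim limit, at 2.13 to 2.41 in mutants and 2.13 to 2.40 in wild types for Mir29a and 1.37 to 1.45 in mutants and 1.36 to 1.52 in wild types for Mir29b-1, so their level could not be read. Of 8 other reported targets 5 were higher and 3 lower (median 0.029). By limma 1 had an unadjusted p under 0.05, with a higher mutant mean (3.53% of all probe sets in either direction, 2.25% higher). This was Tet3, which oxidises methylcytosine, at 7.29, 7.20 and 7.19 in mutants and 6.76, 6.87 and 6.88 in wild types, a difference of 0.39 (SE 0.079, unadjusted p = 0.00139, adjusted p = 0.999). Tet2 differed by 0.25 and Dnmt3a, a DNA methyltransferase, by −0.31.

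Genes that make, cut and bind collagen did not pass the test either. Of the 14 prolyl and lysyl modification genes tested, 4 were higher and 10 lower (median −0.044). Most were highest in wild type 2. Their mean was −0.21, 0.089 and 0.0023 in mutants 1 to 3 and −0.25, 0.37 and −0.13 in wild types 1 to 3. P3h2, a prolyl 3-hydroxylase active on type IV collagen, read 8.59, 8.84 and 8.47 in mutants and 8.37, 8.45 and 8.41 in wild types. The difference was 0.22 (SE 0.11) with no overlap (8.55% of all probe sets in either direction, 5.17% higher). Plod3, a lysyl hydroxylase, differed by −0.20, P4ha3 by −0.15 and P4ha1, a catalytic subunit of prolyl 4-hydroxylase, by −0.019. Plod3 read 8.95 in wild type 2 and 8.37 to 8.53 elsewhere, and P4ha3 read 4.91 there and 4.49 to 4.62 elsewhere. P4ha2, named after its values were seen, read 9.00 in wild type 2 and 7.19 to 7.92 elsewhere.

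Of the 8 folding and secretion genes 4 were higher and 4 lower (median −0.046). Serpinh1, the collagen chaperone HSP47, read 8.97, 9.35 and 9.18 in mutants and 8.90, 10.09 and 9.06 in wild types, so that wild type 2 again stood above the rest, and differed by −0.19 (SE 0.29). Creb3l1, a transcription factor of secretory cells, differed by 0.16. Among cleavage and crosslinking genes 9 of 11 were higher (median 0.071). Lox, the crosslinking lysyl oxidase, read 5.59, 6.39 and 5.43 in mutants and 5.67, 6.21 and 5.97 in wild types, with mutant 2 and wild type 2 on top and a difference of −0.15 (SE 0.26). Adamts3, a procollagen peptidase, differed by 0.21 and Loxl1 by 0.22.

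Of the 7 receptor genes tested 5 were higher (median 0.10). Ddr1, a receptor tyrosine kinase that binds collagen, read 7.71, 7.79 and 7.54 in mutants and 7.50, 7.42 and 7.21 in wild types. Its groups did not overlap (8.55% of all probe sets in either direction, 5.17% higher). Its difference of 0.30 (SE 0.11) had an unadjusted limma p of 0.026 and an adjusted p of 0.999. Of all probe sets 3.53% had an unadjusted p under 0.05. Itga1, an integrin chain for type IV collagen, differed by 0.26 (SE 0.14). Of the 6 collagen-degrading proteases 2 passed the filter, Mmp14 at 0.26 (SE 0.17) and Mmp2 at 0.18 (SE 0.15). Among leucine-rich proteoglycans of fibrils 3 of 5 were higher (median 0.052), with Prelp at 0.25 (SE 0.11) and Bgn, biglycan, at 0.26 (SE 0.25). Dcn, decorin, which binds type I fibrils and was named after its values were seen, read 7.47, 8.56 and 7.97 in mutants and 7.54, 8.63 and 7.68 in wild types, again highest in mutant 2 and wild type 2.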

How the data were processed

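Yolk sac RNA of 3 mutant and 3 wild-type embryos was analysed from 1 table, grouped by sample title. The values are log2 signals of 35557 probe sets as deposited; the scale was read from the values (0.66 to 13.7). MAS5 is the only tool in the submitters' processing notes, and no label or header states the authors' background step or normalization. The platform annotation named 21789 probe sets with 1 symbol, 1621 with several and 12147 with none. Those with at least 1 symbol whose mean reached their 30th percentile (4.29) were tested with limma 3.58.1 in R 4.3.3, without a block, with Benjamini-Hochberg adjustment over 16387. The code was tested on simulated data. Each collagen was named; values by array were given at an unadjusted p under 0.05, for the 4 largest differences on a side, for the 3 largest ranges of a class, and for Col1a1, Col1a2, Col3a1, Col4a1, Col4a2 and Col18a1. In the other lists up to 3 genes with the lowest p, Serpinh1, Lox and P4ha1 were named. For marker lists the rule was the 2 members with the largest range. It was not applied to the visceral endoderm, endothelium, primitive erythroid and embryo body lists, of which no member was named. Igfbp1, Syna, Peg10, Postn, Hand1, Upk3b and Krt19 were named after their values were seen. Members and lists were chosen with earlier results of these data known. Alternatives are listed in the closing section. RefSeq promoter windows matched 35 of 44 genes.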

Additional observations from a re-analysis of the deposited data

How the results depend on the processing

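With 3 arrays a group, 1 library can turn the sign of a collagen difference. None of the 43 collagens tested passed an adjusted p of 0.05 in any of 19 alternatives: quantile normalization, centred medians, no filter, a 50th percentile filter, unnamed probe sets added, the replicate block, the methods' t-test, array weights, variances with an intensity trend, the Xist covariate, leaving out each array or 2 pairs of arrays, and averaging the probe sets of each gene. With wild type 2 and mutant 1 both left out, limma called 1 probe set of all tested (Tnrc6a) and 2 collagens had an unadjusted p under 0.05. Both libraries were singled out by earlier results. The library labelled mutant 1 was marked out by its Tnrc6a level, so the call of Tnrc6a follows in part from this choice. The count of collagens with an unadjusted p under 0.05 was 0 to 2 when 1 library was left out. Over all probe sets the unadjusted count of 579 was 1086 with array weights, 1372 without mutant 3 and 1173 without that pair. With the 50th percentile filter the median of the type IV collagens was −0.38, since fewer of them were tested. Leaving out 1 library at a time, the log2 difference ran from −0.48 to 0.067 for Col11a1, −0.28 to 0.22 for Col14a1, −0.21 to 0.25 for Col1a1, −0.33 to 0.17 for Col1a2, −0.17 to 0.19 for Col3a1, −0.74 to 0.14 for Col4a1, −0.70 to 0.19 for Col4a2, −0.14 to 0.23 for Col4a6, −0.10 to 0.31 for Col6a3 and −0.17 to 0.15 for Col9a1. Signs also turned with quantile normalization and centred medians (Col3a1 at 0.031 and 0.00074), array weights (Col11a1 0.017, Col14a1 0.099, Col1a2 0.099, Col3a1 0.12, Col9a1 0.034), the Xist covariate (0.011, 0.061, 0.051, 0.11 and 0.077 for the same genes), with wild type 2 and mutant 1 both left out (Col11a1 0.017, Col1a2 0.093, Col3a1 0.22, Col4a1 0.13, Col4a2 0.18, Col9a1 0.24) and without wild type 2 and mutant 2, a choice made after seeing the data (Col1a1 −0.057, Col3a1 0.013, Col4a1 0.13, Col4a2 0.18, Col9a1 0.040). The cause was not tested.

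No label says that the replicate numbers pair the arrays. Deviations of same-numbered arrays correlated at 0.45, 0.15 and −0.11 for numbers 1, 2 and 3, and those of differently numbered arrays at −0.45 to 0.24. Deviations within a genotype cancel out by construction, so these values cannot decide on a pairing. With the replicate block 727 probe sets had an unadjusted p under 0.05, 0 passed, and 1 collagen, Col23a1, had an unadjusted p under 0.05.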
